A study of Mus musculus with 12 samples.

Results

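Megakaryocytes are the large marrow cells that release platelets, and 8 genes that mark them were described here in lineage-negative bone marrow cells of mice. The genes were Pf4, Ppbp, Itga2b, Itgb3, Vwf, Gp1bb, Gp9 and Gp6. They were taken by symbol from a deposited table of read counts that holds 31060 genes, and all 8 were found in it. RNA-seq counts came from C57BL/6 mice of 4 genotypes, and the lineage-negative fraction is what is left of marrow once cells bearing markers of mature blood lineages are removed. The groups were Tet2+/- (labelled Tet2het, n = 3), Ins2Akita/+ (Akita, n = 2), Tet2+/-;Ins2Akita/+ (the double mutant, n = 3) and wild type (WT, n = 3). The product of Tet2 oxidises methylated cytosines in DNA. Ins2Akita is a dominant allele of an insulin gene that harms pancreatic beta cells. The labels give no age, no promoter or Cre driver and no statement that libraries of a group came from separate animals. The p-values below therefore measure the spread between these libraries, which may be technical. Another sample labelled as a double mutant was not analysed here.

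Megakaryocytes fill their alpha granules with chemokines and adhesive proteins and carry adhesion receptors that platelets later use to stick to a damaged vessel wall. Pf4 and Ppbp encode granule chemokines, and Vwf encodes the large adhesive protein that platelets bind under flow. Gp1bb and Gp9 encode subunits of the receptor for it. Itga2b and Itgb3 encode the chains of the fibrinogen receptor, and Gp6 encodes a collagen receptor. GATA1 and the ETS factor FLI1 are textbook activators of such genes. Some of these genes are also used elsewhere: Itga2b is found on some stem and progenitor cells, Itgb3 pairs with another integrin chain in macrophages and osteoclasts, and Vwf is made by endothelial cells and by a subset of stem cells.

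The stretches just upstream of Pf4, Ppbp, Gp9 and Gp6 are given, the members with a RefSeq entry whose stretch held no annotated exon base. Over the libraries numbered 1 and 2 these 4 genes were positively correlated in every pairing, and so was Itga2b with each of them. The stretches were chosen after these values were seen. Each runs 5′ to 3′ on the strand of the gene over the 250 bases before the RefSeq start in GRCm38.p6. Pf4 lies at chr5:90772185-90772434 on the plus strand, Ppbp at chr5:90768268-90768517 on the plus strand, Gp9 at chr6:87777820-87778069 on the plus strand and Gp6 at chr7:4397745-4397994 on the minus strand. Capitals mark a match on either strand to a GATA motif, searched as AGATAA and also in the form AGATAG, in the form TGATAA and in the form TGATAG, or to an ETS motif, searched as AGGAAG and also in the form CGGAAG.
Pf4: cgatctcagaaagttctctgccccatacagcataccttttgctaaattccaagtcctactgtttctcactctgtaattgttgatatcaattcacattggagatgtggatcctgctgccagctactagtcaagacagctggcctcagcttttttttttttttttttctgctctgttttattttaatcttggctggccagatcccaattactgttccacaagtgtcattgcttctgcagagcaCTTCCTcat
Ppbp: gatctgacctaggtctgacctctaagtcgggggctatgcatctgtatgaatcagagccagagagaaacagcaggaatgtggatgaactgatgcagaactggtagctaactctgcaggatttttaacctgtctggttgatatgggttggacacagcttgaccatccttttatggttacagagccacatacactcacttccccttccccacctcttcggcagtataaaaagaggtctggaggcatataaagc
Gp9: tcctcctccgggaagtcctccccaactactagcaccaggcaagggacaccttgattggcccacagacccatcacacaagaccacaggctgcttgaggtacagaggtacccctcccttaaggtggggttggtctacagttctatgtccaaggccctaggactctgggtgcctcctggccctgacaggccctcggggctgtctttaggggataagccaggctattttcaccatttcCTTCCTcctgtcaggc
Gp6: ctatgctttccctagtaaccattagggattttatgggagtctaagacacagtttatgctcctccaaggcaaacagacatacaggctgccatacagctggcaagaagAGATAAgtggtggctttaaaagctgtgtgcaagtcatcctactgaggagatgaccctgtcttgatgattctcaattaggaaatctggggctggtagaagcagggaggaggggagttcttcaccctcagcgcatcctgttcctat
The ETS motif AGGAAG was read on the opposite strand, first base at -9 from the start in Pf4 and at -16 in Gp9, and the GATA motif AGATAA on the gene's strand at -144 in Gp6. Pf4 held another AGATAA at 37 bases after its start, outside the stretch shown, and Ppbp had no match to any of these 6-letter words. Over windows running from 250 bases before to 50 after the start, 3 of the 6 members with a RefSeq entry held a GATA motif, beside 29.8% of all 32817 windows, and 4 of 6 held an ETS motif, beside 46.5%. Among the other megakaryocyte and platelet genes read below, 11 of 47 windows (23.4%) held a GATA motif and 28 (59.6%) an ETS motif. These matches are a description of letters. Itga2b and Gp1bb were searched but are not shown because their upstream stretches overlap annotated exons, and Itgb3 and Vwf were not searched.

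Total counts ran from 14814409 to 22600405 per library, so 3 counts, the most that a count of 0 allows, were worth 0.133 to 0.203 CPM (read counts scaled to library size); such limits and intervals cover counting error only. Tet2, read as a check of the labels, had 19.0, 18.5 and 19.3 CPM in the Tet2het libraries. Akita libraries had 131 and 107 CPM of it, those labelled double mutant 66.5, 108 and 34.2 CPM and WT libraries 91.2, 128 and 45.1 CPM. The libraries labelled double mutant thus all lay above the Tet2het libraries in Tet2 although both carry the Tet2+/- label, and every direction below is one between libraries carrying these labels. Kit, the stem cell factor receptor, was read in all 11 libraries at 76.1 to 132 CPM, and so was S100a9, an abundant gene of maturing neutrophils, at 545 to 21226 CPM. The libraries numbered 3 of the Tet2het, double mutant and WT groups stood apart, with 3.43% to 9.76% of counts from mitochondrial genes against 1.36% to 1.94% in the other 8, and Akita has no library of that number here. The count table holds a column named as an Akita library numbered 3 would be, but no sample carries that label and the column was left out. Medians, members' differences and correlations are therefore given over all libraries and without those numbered 3, a fit in which Gp6 was not tested.

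Itga2b and Pf4 were the most abundant of the 8 per base of transcript and Gp6 the least. Itga2b averaged 78.8 ± 29.96 TPM (read counts scaled for exon length and library size; SD, n = 11) and Pf4 63.0 ± 23.3 TPM. Gp1bb followed at 36.4 ± 19.96 TPM, Gp9 at 19.6 ± 13.7 TPM and Itgb3 at 12.9 ± 3.09 TPM. Ppbp at 5.25 ± 3.71 TPM, Vwf at 4.31 ± 1.92 TPM and Gp6 at 0.200 ± 0.129 TPM were the lowest. Itgb3 varied least among libraries relative to its mean. The levels below are in CPM, which is not divided by length and so compares libraries for 1 gene only.

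Pf4 and Ppbp, the granule chemokines, lie 2371 bases apart on GRCm38 chromosome 5 (Pf4 at 90772435 to 90773383 and Ppbp at 90768518 to 90770063, plus strand). Pf4 stood at 13.6, 24.6 and 11.5 CPM in Tet2het, 14.0 and 9.08 CPM in Akita, 12.1, 6.86 and 33.2 CPM in the double mutant and 17.5, 18.5 and 20.1 CPM in WT libraries. Both Akita libraries lay below every WT library, whereas the double mutant held both the lowest and the highest value of all. Ppbp stood at 1.33, 2.37 and 3.33 CPM in Tet2het, 1.09 and 1.10 CPM in Akita, 0.401, 0.845 and 4.94 CPM in the double mutant and 1.26, 1.54 and 4.54 CPM in WT libraries. Again the double mutant spanned the whole range, and number 3 was the highest library in each group that has one. Ppbp rests on few reads: its lowest library, double mutant 1, held 8 counts (95% exact Poisson interval 3.45 to 15.8).

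Itga2b (chromosome 11, 102453297 to 102470122, minus strand) stood at 128, 153 and 87.3 CPM in Tet2het and at 128 and 131 CPM in Akita libraries. It stood at 123, 98.1 and 384 CPM in the double mutant and at 141, 136 and 221 CPM in WT libraries. The double mutant library numbered 3 was the highest of the 11, and apart from it the double mutant lay below WT. Itgb3, its partner chain (chromosome 11, 104608000 to 104670476, plus strand), stood at 32.3, 23.6 and 13.7 CPM in Tet2het, 27.2 and 23.8 CPM in Akita, 28.9, 22.9 and 50.9 CPM in the double mutant and 24.9, 27.5 and 26.5 CPM in WT libraries. The 3 WT libraries were close together and the values of every other group reached to both sides of WT or into its range.

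Vwf (chromosome 6, 125546774 to 125686679, plus strand) stood at 17.6, 10.98 and 14.6 CPM in Tet2het, 24.1 and 24.1 CPM in Akita, 25.6, 12.9 and 49.8 CPM in the double mutant and 22.7, 28.9 and 41.6 CPM in WT libraries. All Tet2het libraries lay below all WT and all Akita libraries, and the double mutant overlapped every group. Gp9 (chromosome 6, 87778072 to 87779768, plus strand), a receptor subunit for Vwf, stood at 3.46, 4.98 and 17.0 CPM in Tet2het, 3.63 and 4.23 CPM in Akita, 3.16, 1.94 and 11.2 CPM in the double mutant and 6.65, 3.63 and 8.35 CPM in WT libraries. Number 3 was the highest library in each group that has one, and the group ranges overlapped throughout. Gp6 (chromosome 7, 4363965 to 4397744, minus strand), the collagen receptor, was near the limit of detection with 3 to 16 counts a library. It stood at 0.387 to 0.593 CPM in Tet2het, 0.144 and 0.302 CPM in Akita, 0.150, 0.199 and 0.761 CPM in the double mutant and 0.299 to 0.968 CPM in WT libraries, so a difference under several-fold was not detectable at this depth.

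Gp1bb (chromosome 16, 18620317 to 18622403, minus strand) ran differently from the other 7. It stood at 27.9, 36.0 and 3.04 CPM in Tet2het and at 26.7 and 19.4 CPM in Akita libraries. It stood at 53.8, 55.4 and 32.3 CPM in the double mutant and at 24.8, 24.8 and 3.81 CPM in WT libraries. The libraries labelled double mutant all lay above every WT and every Akita library and overlapped Tet2het through Tet2het 2. Number 3 was its lowest library in each group, whereas in the double mutant number 3 was the highest library for each of the other 7 members.

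**Figure D1:**
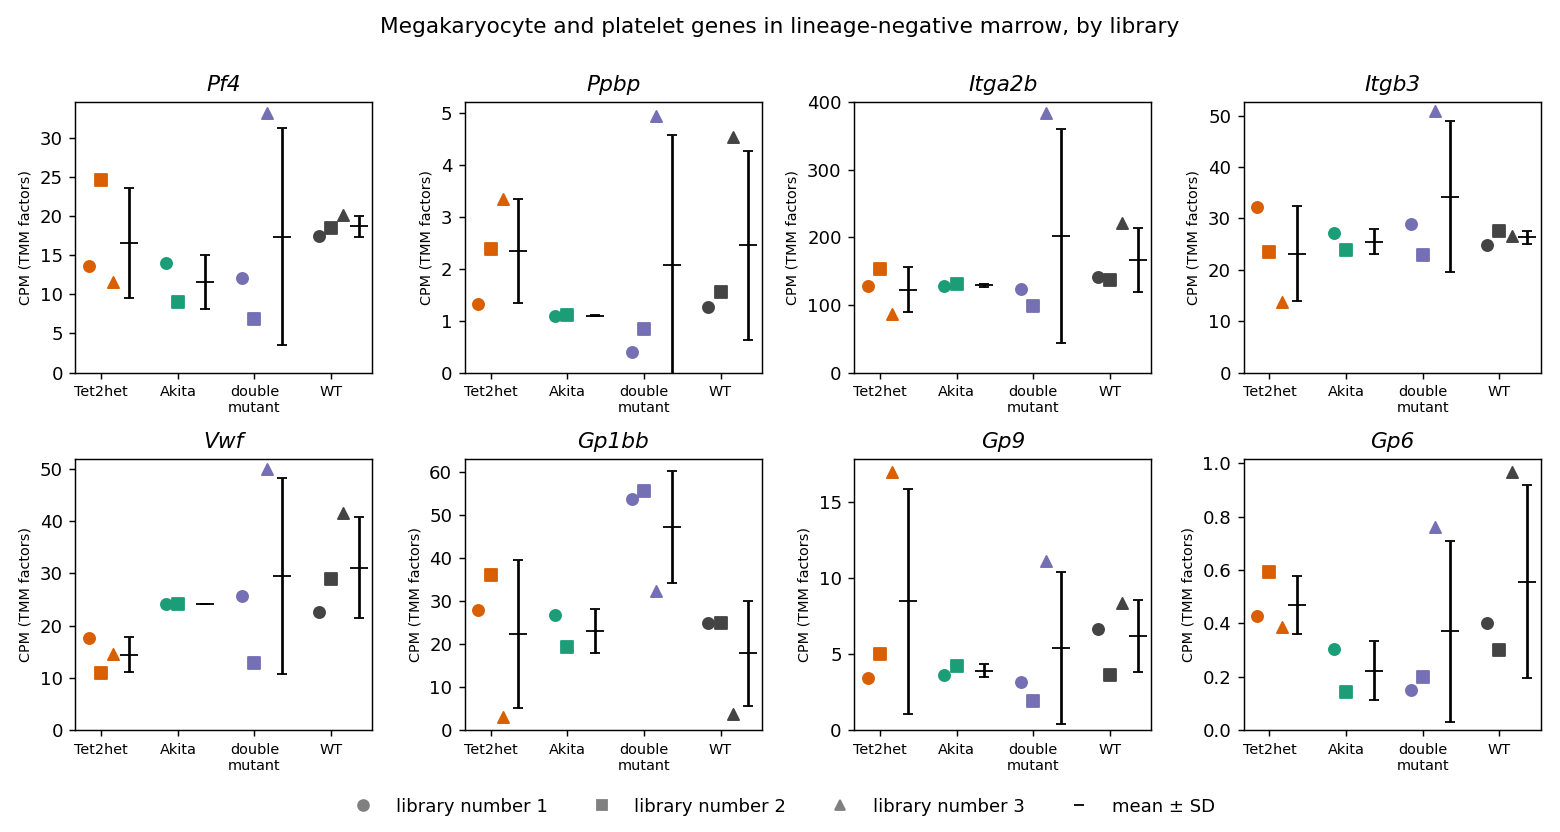
Level of each of the 8 genes in every library, in CPM with TMM factors on a linear axis from 0, by genotype. Symbols give the library number and black bars the mean ± SD (n = 3, Akita n = 2), cut at 0 for Ppbp in the double mutant. The double mutant library numbered 3 is the highest of the 11 for Pf4, Ppbp, Itga2b, Itgb3 and Vwf, while Gp1bb is lowest in Tet2het and WT libraries numbered 3.

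Ordered by group mean, neighbouring genotypes overlapped in all but 3 places. Itga2b averaged 123 ± 33.0 CPM in Tet2het, 129 ± 2.36 CPM in Akita, 202 ± 158 CPM in the double mutant and 166 ± 47.6 CPM in WT libraries (SD, n = 3, Akita n = 2), with no overlap between Akita and WT. Vwf averaged 14.4 ± 3.33 CPM in Tet2het, 24.1 ± 0.0304 CPM in Akita, 29.4 ± 18.8 CPM in the double mutant and 31.0 ± 9.63 CPM in WT libraries, with no overlap between Tet2het and Akita. Gp1bb averaged 22.3 ± 17.2 CPM in Tet2het, 23.0 ± 5.14 CPM in Akita, 47.2 ± 12.9 CPM in the double mutant and 17.8 ± 12.1 CPM in WT libraries, with no overlap between the double mutant and Akita, its nearest neighbour in the order. Of all genes tested, 6.86% were likewise lower in every Akita than in every WT library. A further share, 16.6%, were higher in every double mutant than in every Akita library. The share for Tet2het against Akita was not computed, so these places are descriptions only. For Pf4, Ppbp, Gp9 and Gp6 the Akita mean was the lowest of the 4 genotypes, and for Itgb3 the Tet2het mean was. Over numbers 1 and 2 alone the double mutant was the lowest for these 4 genes instead. In the double mutant, Pf4 then averaged 9.496 CPM, Ppbp 0.623 CPM, Gp9 2.55 CPM and Gp6 0.175 CPM, against 11.5, 1.10, 3.93 and 0.223 CPM in Akita.

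Tet2het and WT libraries were compared first, which concerns the Tet2+/- label alone. None of the 8 genes passed edgeR's quasi-likelihood test with Benjamini-Hochberg adjusted p under 0.05, beside 4 of all 15630 genes tested (0.0256%). DESeq2 and limma voom called none of the 8 in this or any later comparison over all libraries. The members' median log2 difference was -0.18, beside 0.03 over all genes tested, and 6 of 8 were below 0. The sign turned without the libraries numbered 3, with a median of 0.08 and 5 of 7 above 0. At an unadjusted p under 0.05 stood 1 member, Vwf, beside 332 of all genes. Its log2 difference was -1.10 (SE 0.44, unadjusted p = 0.0319, adjusted p = 1.0 by edgeR), and its level was lower in Tet2het within each library number, with log2 differences of -0.35, -1.36 and -1.47. Vwf was the member whose Tet2het and WT libraries did not overlap, which alone fixes the sign within each library number. It lay lower in Tet2het without overlap, as did 2.18% of all genes tested. Without the libraries numbered 3 its difference was -0.84 (SE 0.34, adjusted p = 0.694 by edgeR). The list of 13 endothelial genes, whose cells also make Vwf, had a summed level of 167 to 245 CPM in Tet2het and 144 to 259 CPM in WT libraries, and 5 of its 12 tested genes lay above 0 and 7 below in this comparison. Sox17 of that list had no count in 7 of the 11 libraries. The endothelial share of Vwf was not tested.

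Akita and WT libraries, a comparison of the Akita allele alone, gave no called gene among 15630 (0%), and so none of the 8. At an unadjusted p under 0.05 stood 67 genes and none of the 8. DESeq2 and limma voom called no gene either. The members' median was -0.51, beside -0.01 over all genes, with 7 of 8 below 0 and Gp1bb above. Pf4, Ppbp and Itga2b were lower in both Akita libraries than in any WT library, as were 6.86% of all genes tested. Their log2 differences were -0.70 (SE 0.60), -1.15 (SE 0.99) and -0.36 (SE 0.54), all at an adjusted p of 1.0 by edgeR. Without the libraries numbered 3 these were -0.65, -0.35 and -0.10, and the median was -0.11 with all 7 tested members below 0.

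For the libraries labelled double mutant against WT, none of the 8 was called, beside 7 of all genes tested (0.0448%). By unadjusted p, 1374 genes and no member passed 0.05. The members' median was -0.09, beside -0.05 over all genes, with 3 above 0 and 5 below. Gp1bb had the largest difference of the 8, at 1.40 (SE 0.82, adjusted p = 0.739 by edgeR), and was higher in the double mutant within each library number, by 1.10, 1.15 and 2.93 in log2. Those signs follow from its double mutant and WT libraries not overlapping, as was so in this direction for 9.55% of all genes tested. With the replicate number as a block its difference was 1.87 (SE 0.49, adjusted p = 0.0913 by edgeR).

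Without the libraries numbered 3, Gp1bb was called higher in the double mutant, at a log2 difference of 1.14 (SE 0.19, adjusted p = 0.0231 by edgeR; 53.8 and 55.4 CPM in the double mutant against 24.8 and 24.8 CPM in WT libraries). In that fit 519 of 15092 genes were called (3.44%), 246 of them higher in the double mutant, and 1 of the 7 members tested. The remaining 6 members then lay below 0 and none was called, and the median of the 7 was -0.42. Ppbp was at -1.16 (SE 0.46), Gp9 at -1.01 (SE 0.38) and Pf4 at -0.92 (SE 0.36), with adjusted p of 0.212, 0.189 and 0.203 by edgeR. Vwf at -0.42, Itga2b at -0.32 and Itgb3 at -0.02 were closer to 0. Leaving out double mutant 3 alone gave Ppbp -1.95, Gp9 -1.28, Pf4 -0.98, Vwf -0.69, Itga2b -0.58 and Gp6 -1.61, none of them called. Gp1bb was at 1.62 in that fit (SE 0.93, adjusted p = 0.722 by edgeR) and not called either.

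Set against Tet2het, which asks about the Akita label on the Tet2+/- background, the double mutant again had no called member, beside 41 of all genes (0.262%). Medians were 0.31 over the members and -0.08 over all genes, and no member's groups were free of overlap, as were 8.48% of all genes with the double mutant higher and 6.68% with it lower. Vwf had a log2 difference of 1.03 (SE 0.44, unadjusted p = 0.0428, adjusted p = 0.439 by edgeR), 1 of 1701 genes at an unadjusted p under 0.05, and was higher in the double mutant within each library number by 0.52, 0.22 and 1.73. Gp1bb was at 1.08 (SE 0.82, adjusted p = 0.635). Without the libraries numbered 3 Gp1bb was called higher at 0.77 (SE 0.19, adjusted p = 0.0428 by edgeR), beside 7.71% of all genes called in either direction, and Vwf was at 0.42 (adjusted p = 0.466). The members' median then turned to -0.34, with 2 above 0 and 5 below. Ppbp was at -1.55 (SE 0.46, adjusted p = 0.0803) and Pf4 at -1.01 (SE 0.36, adjusted p = 0.129).

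Against Akita, none of the 8 was called in the double mutant either, beside 6 of all genes (0.0384%). No member was among the 1032 genes at an unadjusted p under 0.05. All 8 were above 0, with a median of 0.62 beside 0.01 over all genes, and only Gp1bb, at 1.03 (SE 0.93, adjusted p = 0.946 by edgeR), was free of overlap between the groups, as were 16.6% of all genes in that direction. Without the libraries numbered 3, which the Akita group lacks, the members' median was -0.27 and Gp1bb was called higher at 1.25 (SE 0.19, adjusted p = 0.0214 by edgeR), beside 2.89% of all genes in either direction. The interaction of both labels, the difference of the double mutant from Tet2het minus that of Akita from WT, called no gene (0%) and no member, while 537 genes and no member had an unadjusted p under 0.05, limma voom called no gene, and DESeq2 called 57 genes. Its median over the members was 0.85, beside -0.02 over all genes, and -0.24 without the libraries numbered 3. Vwf was at 1.39 (SE 0.67) and Gp1bb at 0.71 (SE 1.22). These comparisons share libraries, so their values are not independent of each other.

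**Figure D2:**
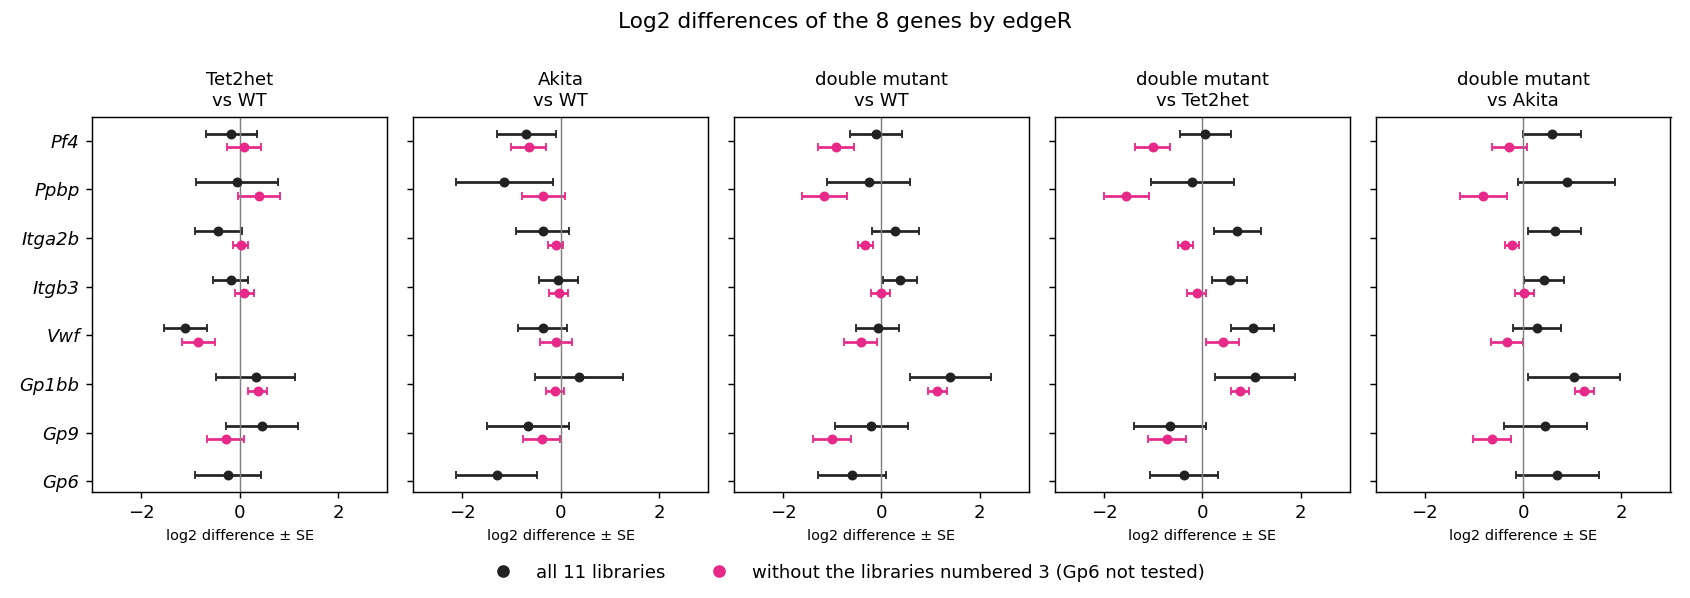
Log2 differences ± SE of the 8 genes by edgeR in 5 comparisons, with all 11 libraries (black) and without the libraries numbered 3 (pink, where Gp6 was not tested). Gp1bb lies to the right of 0 in the 3 comparisons of the double mutant under both fits, and Vwf lies to the left of 0 in Tet2het against WT, at -1.10 and -0.84.

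Gp1bb cannot be read apart from Sept5, a septin gene on the same strand. In the GENCODE M21 annotation of GRCm38, 1902 of its 2087 exon bases (91.1%) are also exon of Sept5 (18620502 to 18629954), through a long Sept5 transcript that runs on into Gp1bb, while 2 shorter Sept5 transcripts share 593 bases. Of the Gp1bb exon bases, 867 (41.5%) are shared with the gene model Gm49601, which the count table does not hold. Most of these must also be Sept5 exon. The file lists Gp1bb under an earlier version of its identifier, so its exons there may differ from these. How the deposited counts treated reads in shared exons is not given in the sources used here, so counts of Gp1bb and Sept5 could be split either way. Sept5 stood at 104, 88.5 and 6.14 CPM in Tet2het and at 116 and 75.5 CPM in Akita libraries. It stood at 201, 225 and 89.6 CPM in the double mutant and at 84.0, 87.7 and 5.32 CPM in WT libraries, so Sept5, like Gp1bb, was lowest in Tet2het 3 and WT 3 and highest in double mutant 1 and 2. Per 100 Sept5 counts there were 26.8, 40.6 and 49.6 Gp1bb counts in Tet2het, 22.9 and 25.7 in Akita, 26.7, 24.7 and 36.0 in the double mutant and 29.6, 28.3 and 71.6 in WT libraries. That ratio was lower in the double mutant than in WT within each library number. Sept5 correlated with Gp1bb at r = 0.91 over the 8 libraries numbered 1 and 2, and ranked 17 of 11934 genes in likeness to it over all 11.

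**Figure D3:**
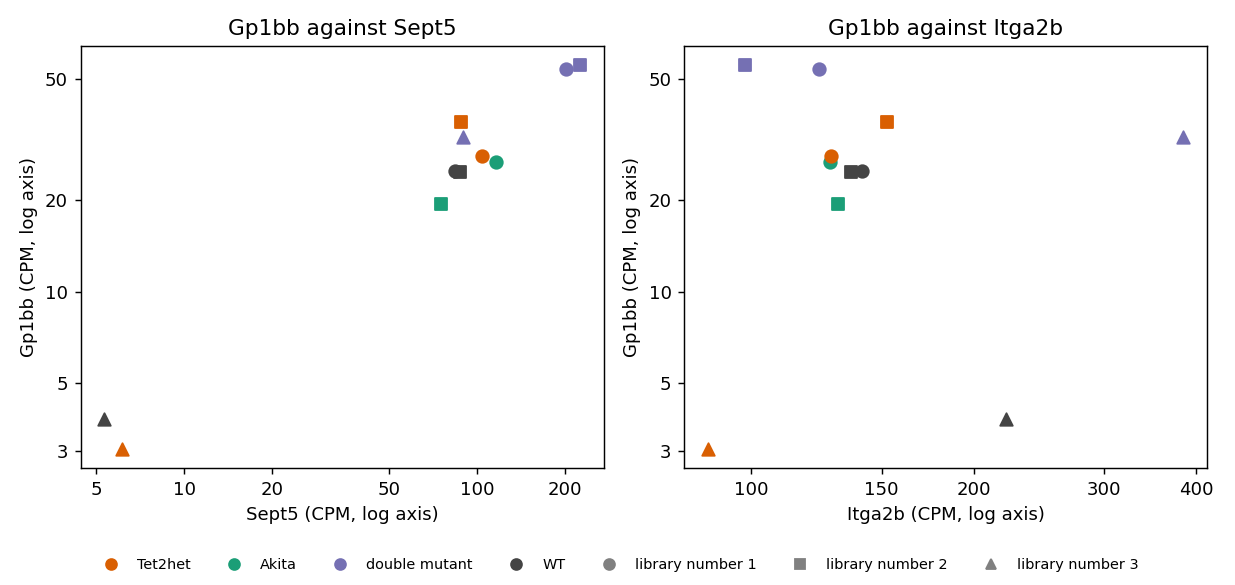
Gp1bb against Sept5 (left) and against Itga2b (right) in the 11 libraries, in CPM on log axes, with genotype by colour and library number by symbol. Gp1bb follows Sept5 from 3.04 CPM beside 6.14 CPM of Sept5 in Tet2het 3 to 55.4 CPM beside 225 CPM in double mutant 2, and shows no such course with Itga2b.

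The neutrophil genes mostly ran with Gp1bb, though double mutant 3 had a higher neutrophil sum than Tet2het 2 and less Gp1bb. The neutrophil list of 14 genes, none at 0 in any library, summed to 3497 to 35653 CPM in Tet2het and 24273 to 41454 CPM in Akita libraries. It summed to 57007 to 82599 CPM in the double mutant and 3533 to 34358 CPM in WT libraries. All 14 were above 0 in the double mutant against WT, with a median log2 difference of 1.83. Over the 8 libraries numbered 1 and 2, Gp1bb correlated with the log2 of that sum at r = 0.92, while Pf4 was at -0.47, Itga2b at -0.79 and Gp9 at -0.79. Over all 11 libraries Gp1bb was at 0.98, Pf4 at -0.03, Itga2b at 0.10 and Gp9 at -0.67. With the log2 of the monocyte and macrophage sum, Gp1bb was at 0.76 over the 8 libraries and at 0.84 over all 11. S100a9 stood at 11909, 21226 and 18290 CPM in the double mutant against 6194, 6152 and 545 CPM in WT libraries. Whether Gp1bb reads came from neutrophils was not tested. In bulk RNA, fewer cells of a type and less RNA per cell cannot be told apart.

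The B lineage list of 10 genes, none at 0 in any library, ran the other way. It summed to 202 to 401 CPM in Tet2het, 194 to 207 CPM in Akita, 57.8 to 78.0 CPM in the double mutant and 164 to 225 CPM in WT libraries, so the double mutant lay below all other libraries. All 10 were below 0 in the double mutant against WT, with a median log2 difference of -2.34 and none called. All 10 were also below 0 against Tet2het, with a median of -3.21. Of these, 5 were called lower, beside 41 of all genes tested called in either direction (0.262%). The 16 erythroid genes were also all below 0 against WT, with a median of -0.95 and none called. Over the 8 libraries numbered 1 and 2, the log2 of the B lineage sum correlated with Itga2b at 0.88, Ppbp at 0.86, and Pf4, Gp9 and Gp6 at 0.75 to 0.76, while Gp1bb was at -0.71. Over all 11 libraries Itga2b was at -0.15, Gp1bb at -0.32 and Ppbp, Pf4, Gp9 and Gp6 at 0.18 to 0.26. The part of B lineage cells in the members' levels was not tested.

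The 7 members other than Gp1bb did not all move as 1 group. Over the 8 libraries numbered 1 and 2, 16 of their 21 pairs had a positive Pearson correlation of log2(CPM + 0.5), with a median of 0.42 and a range of -0.49 to 0.89. Pf4 and Itga2b had the highest value at 0.89, followed by Itga2b and Gp9 at 0.88, Ppbp and Gp6 at 0.82 and Pf4 and Gp6 at 0.80. The neighbours Pf4 and Ppbp were at 0.67. Itgb3 and Itga2b, chains of the same receptor, were at 0.08, and Vwf was at 0.42 with Itgb3 and at -0.49 with Gp6. All 7 correlations of Gp1bb were negative, between -0.62 with Gp9 and -0.07 with Itgb3. Over all 11 libraries 20 of the 21 pairs were positive, with a median of 0.60. Itgb3 and Itga2b were then at 0.80, Vwf was at 0.65 with Itgb3 and at 0.38 with Gp6, and Pf4 was at 0.81 with Itga2b. For Gp1bb, 2 of 7 were then positive, Itgb3 at 0.50 and Itga2b at 0.02, and Gp9 was at -0.74. These are descriptions over libraries that share genotype and marker content, with no test.

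**Figure D4:**
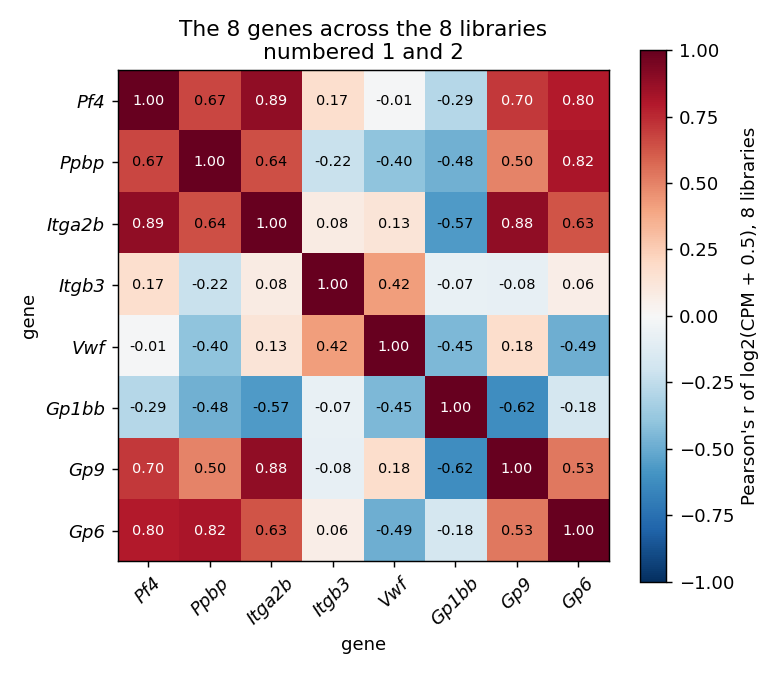
Pearson's r of log2(CPM + 0.5) between each pair of the 8 genes over the 8 libraries numbered 1 and 2. Pf4, Ppbp, Itga2b, Gp9 and Gp6 are positively correlated in every pairing, Itgb3 and Vwf stand apart from them, and Gp1bb is negative with the other 7.

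Genes whose pattern over all 11 libraries was most like each member were picked by r among 11934 genes with a mean of at least 1 CPM. Among the nearest to Pf4 were Nrgn (r = 0.90, and 0.85 over the 8 libraries numbered 1 and 2) and Treml1 (0.90 and 0.86), the last a receptor of platelet granules. Itgb3 had Tbxas1, the thromboxane synthase of platelets and macrophages (0.98 and 0.87), Tmem220 (0.95 and 0.69) and Rnf150 (0.94 and 0.82). Nearest to Itga2b were Bpifc (0.98 and 0.73), Sgce (0.95 and 0.83) and Rab37 (0.94 and 0.73). Vwf had Zfp27 (0.93 and 0.94), Rtl6 (0.93 and 0.94) and Lrfn1 (0.89 and 0.69). Gp1bb had Marcksl1 (0.99 and 0.98), Orm1 (0.99 and 0.97) and Ltb4r1 (0.99 and 0.95), the last a leukotriene receptor of neutrophils. Ppbp had Mtap, Trappc13 and Sinhcaf (0.95 to 0.97, and 0.86 to 0.93 over the 8 libraries). Gp9 had Oas1c, Zfand1 and Rps18 (0.96 to 0.98, and 0.80 to 0.90). Gp6, with only 3 to 16 counts a library, had Cd69, Gpr34 and Il4 (0.92 to 0.93, and 0.83 to 0.91). The mean of the 8 standardised levels was nearest to Trpc6 (0.94 and 0.74), Epm2a (0.93 and 0.73), Mks1 (0.92 and 0.79), Bpifc (0.92 and 0.53) and the mast cell and basophil protease gene Cpa3 (0.91 and 0.58).

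The libraries numbered 3 lay far from numbers 1 and 2 for several members. In number 3 over the mean of numbers 1 and 2, Itga2b was 0.622-fold in Tet2het, 3.47-fold in the double mutant and 1.59-fold in WT. Pf4 was 0.604-fold in Tet2het, 3.49-fold in the double mutant and 1.12-fold in WT, and Gp9 was 4.03-fold in Tet2het, 4.38-fold in the double mutant and 1.62-fold in WT. Number 3 was higher for 3 of 8 members in Tet2het and for 7 of 8 in both the double mutant and WT. Of all genes tested, 50.5% were higher in number 3 in Tet2het, 50.2% in the double mutant and 50.5% in WT. Of 49 other megakaryocyte and platelet genes, read below, 14 were higher in Tet2het, 36 in the double mutant and 28 in WT. Among the 8 members, Gp1bb was the exception in the double mutant and in WT. It was 0.0953-fold in Tet2het, 0.591-fold in the double mutant and 0.154-fold in WT. Ppbp, Vwf and Gp9 were higher in number 3 in all 3 groups and Gp1bb lower in all 3, which is 37.5% and 12.5% of the members, beside 31.4% and 31.7% of all genes tested.

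Markers of other cells differed in number 3 too. The basophil and mast cell list of 9 genes summed to 866 CPM in Tet2het 3, 5847 CPM in double mutant 3 and 3166 CPM in WT 3, against 2027 to 2067 CPM in the other Tet2het libraries, 918 to 1394 CPM in the other double mutant libraries and 2041 to 2673 CPM in the other WT libraries. Mcpt8, a basophil protease gene, stood at 251 CPM in Tet2het 3, 1624 CPM in double mutant 3 and 921 CPM in WT 3, the same order as Itga2b. The mast cell tryptase gene Tpsb2 of that list had no count in 9 of the 11 libraries. The erythroid list of 16 genes summed to 10710.2 CPM in Tet2het 3, 3214 CPM in double mutant 3 and 6290.2 CPM in WT 3. Gp9 stood at 17.0, 11.2 and 8.35 CPM there, so double mutant 3 and WT 3 were in the opposite order. Over the 8 libraries numbered 1 and 2, Itga2b correlated with the log2 of the basophil sum at 0.54, of the stem and early progenitor sum at 0.75, of the erythroid sum at 0.77 and of the endothelial sum at 0.79. Over all 11 these were 0.88, 0.88, 0.16 and 0.57. Gp9 correlated with the log2 of the erythroid sum at 0.84 over the 8 libraries and at 0.88 over all 11. The part of these cells in the members' levels was not tested.

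**Figure D5:**
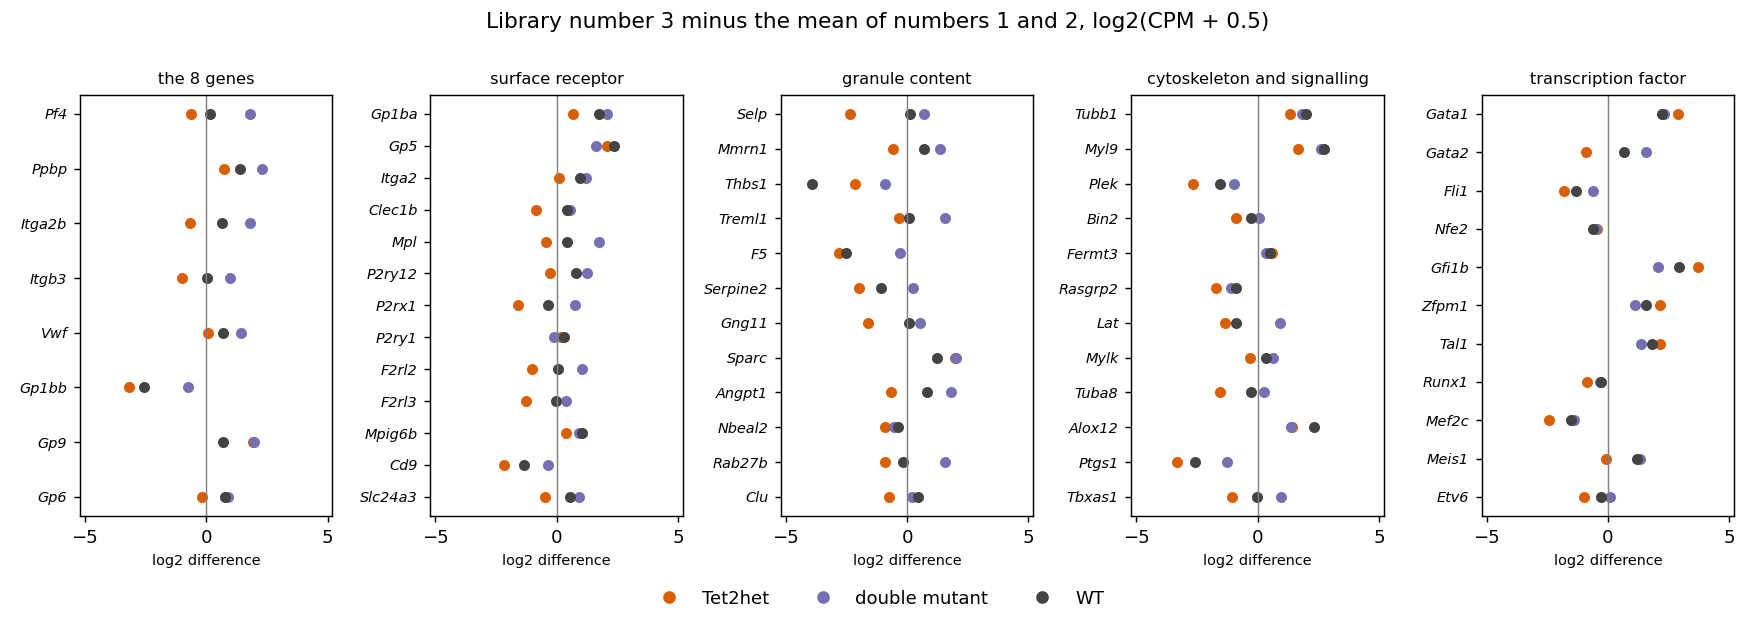
Log2 difference of library number 3 from the mean of numbers 1 and 2, for the 8 genes and for 48 other megakaryocyte and platelet genes by role, in Tet2het, double mutant and WT. Of the 8 genes, 7 lie to the right of 0 in the double mutant and in WT and 3 in Tet2het, and Gp1bb lies to the left in all. Of all genes tested, 50.5% lay above 0 in Tet2het, 50.2% in the double mutant and 50.5% in WT.

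Other genes of megakaryocytes and platelets, 50 in 4 roles, were read beside the 8, and 49 of them were tested. Clu, the granule protein clusterin, which many other cells also make, was the gene called, higher in the double mutant than in Tet2het. It stood at 12.8, 30.3 and 22.9 CPM in the double mutant, against 2.51, 4.15 and 1.74 CPM in Tet2het, 3.75 and 3.31 CPM in the Akita libraries and, in WT libraries, 2.87, 2.94 and 4.17 CPM, so the double mutant lay above all other libraries. The log2 difference from Tet2het was 2.98 (SE 0.43, adjusted p = 0.0367 by edgeR). That from WT was 2.73 (SE 0.42, adjusted p = 0.0680 by edgeR), and it was called by DESeq2, with the replicate block and without the libraries numbered 3. The call against Tet2het was lost without any single one of WT 1, WT 2, Tet2het 1, Tet2het 2, Akita 1, Akita 2, double mutant 2 or double mutant 3, each of which left 0 to 6 calls among all genes.

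None of the 49 was called by edgeR in the other comparisons, with 0 of them at an unadjusted p under 0.05 in Tet2het against WT, 1 in Akita against WT and 6 in the double mutant against WT. Their medians were -0.18 in Tet2het against WT, -0.08 in Akita against WT and 0.20 in the double mutant against WT, beside -0.18, -0.51 and -0.09 for the 8 members. The list's medians without the libraries numbered 3 were 0.07 in Tet2het against WT, 0.02 in Akita against WT and 0.05 in the double mutant against WT, so the sign turned in 2 of the 3. Among the most abundant by role, the tetraspanin gene Cd9 stood at 181, 222 and 155 CPM in the double mutant against 165, 138 and 58.4 CPM in WT libraries, and its log2 difference was 0.62 (SE 0.54). Thrombospondin gene Thbs1 stood at 196, 161 and 93.5 CPM in the double mutant against 426, 584 and 32.1 CPM in WT libraries, with -1.21 (SE 0.87). Nfe2, a transcription factor gene of platelet formation, stood at 276, 306 and 204 CPM in the double mutant against 168, 171 and 111 CPM in WT libraries. Its log2 difference was 0.80 (SE 0.25, adjusted p = 0.311 by edgeR). Its groups did not overlap, as was so in this direction for 9.55% of all genes tested. With the replicate number as a block Nfe2 was called higher, at 0.81 (SE 0.13, adjusted p = 0.0325 by edgeR). That fit also called more of all genes than the main fit, as given below. Gata1 at 24.9, 9.35 and 76.8 CPM in the double mutant against 52.0, 23.4 and 166 CPM in WT libraries, with -1.12 (SE 1.03), lay lower within each library number. Of the remaining named genes, P2rx1, Bin2, Nbeal2, Fermt3, Plek and Angpt1 lay above 0 in this comparison (0.76, 0.62, 0.48, 0.28, 0.23 and 0.05), and P2ry1 and Zfpm1 below (-0.37 and -1.14), none of them called.

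Without the libraries numbered 3, 5 of 45 genes of that list were called in the double mutant against WT, beside the 3.44% of all genes. Among them, Clu at 2.89 and Nfe2 at 0.78 were higher, and Gata2 at -0.86 and Thbs1 at -1.50 were lower (adjusted p of 0.0174, 0.0287, 0.0270 and 0.0419 by edgeR). Against Tet2het 9 of 45 were called, beside 7.71% of all genes, with Selp and Ptgs1 also higher and Lat and Angpt1 also lower, and against Akita 4 of 45, beside 2.89%, with Clu, Nfe2 and Gata2 among them. The directions within the list were thus mixed. Among the 8, Gp1bb alone was called higher against WT, and it cannot be read apart from Sept5. The other 6 tested lay below 0 against WT.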

How the data were processed

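Lineage-negative bone marrow of 12 labelled samples was profiled by RNA-seq. The deposited table holds the authors' raw, whole-number counts of reads per gene, as its header and values show. The submitters' processing notes name bcl2fastq, Trimmomatic 0.32, TopHat2 2.1.1 and GRCm38; which program counted reads, with which annotation and strand setting, is not given in the sources used here. Column names matched 11 samples, and 1 column, named as an Akita library numbered 3 would be, matches no label and was left unused. GENCODE M21 names were found for 30875 of 31060 identifiers once versions were dropped. Libraries within a group always differed by more than counting noise (chi-square per gene of at least 15.9).

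Group differences were estimated by edgeR 4.0.16 under R 4.3.3, with filterByExpr (15630 genes passed, the 8 members included), TMM factors, 1 model of 4 groups, glmQLFit with robust=TRUE and glmQLFTest. Calls had a Benjamini-Hochberg adjusted p under 0.05 over all genes tested, and a standard error was taken as |log2 difference| / √F. The procedure was tested on simulated counts. CPM uses TMM factors, TPM uses GENCODE exon lengths, and correlations use log2(CPM + 0.5). Alternatives were DESeq2 1.42.0, limma 3.58.1 voom, RLE and upper quartile factors, 2 other low count filters, a replicate block, fits of only both groups, robust=FALSE, and fits that left out each library or every library numbered 3.

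The members, the gene lists and the tests were chosen with earlier results of these data known. Named genes were the 8 members, the 3 of highest mean TPM in each role of the wider list and those called in it, marker genes of highest TPM where a result touched them, and the genes most like each member; Gata2, Selp, Ptgs1, Lat, Tpsb2 and Sox17 were named after their values were seen. Some genes that these rules pick are not reported here. Replicate numbers come from the labels. Same-numbered Tet2het, double mutant and WT libraries deviated together from their group means (correlations of 0.318 to 0.791), whereas Akita libraries did not (-0.351 to 0.264). Deviations within a group cancel out, so a number 3 library apart in each group can alone give such values for numbers 1 and 2. The correlations therefore cannot show whether the numbers pair libraries. The main fit used no pairing, and differences within a library number are descriptions.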

Additional observations from a re-analysis of the deposited data

How the results depend on the processing

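Of 48 differences of a member in a comparison, 14 kept their sign in every alternative in which the gene could be tested and 34 did not. Those of Gp1bb in the double mutant stayed above 0 (0.93 to 1.87 against WT, 0.56 to 1.70 against Tet2het, 0.82 to 1.82 against Akita), and that of Vwf in Tet2het against WT stayed below 0 (-1.28 to -0.84). In Akita against WT, Pf4, Ppbp, Itga2b, Vwf, Gp9 and Gp6 also stayed below 0, none of them called. Vwf in the double mutant against Tet2het, Itgb3 against Akita, and Vwf and Gp1bb in the interaction stayed above 0, none of them called. The count of members called was 0 in every alternative but the fit without the libraries numbered 3, where it was 1, Gp1bb, in the double mutant against WT, against Tet2het and against Akita. That fit has fewer samples and did not test Gp6.

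Of the wider list, 5 genes were called in the double mutant against WT, 9 against Tet2het and 4 against Akita without the libraries numbered 3. Over all libraries these counts were 0, 1 and 0. DESeq2 called 1 against WT, 4 against Tet2het, 1 against Akita and 1 in the interaction. The replicate block gave 3 (Clu and Nfe2 among them) against WT and 3 against Tet2het and changed no call of a member. Without a low count filter 1 was called against WT, and with a mean of at least 5 CPM or with both groups alone 0 were called against Tet2het. Leaving out 1 library gave 0 to 1 against WT and 0 to 1 against Tet2het; 1 was called against WT without Tet2het 3 and without double mutant 1.

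Over all genes, DESeq2 called 45 in Tet2het against WT, 408 in the double mutant against WT, 538 against Tet2het and 189 against Akita, where edgeR called 4, 7, 41 and 6. The replicate block gave 8, 255, 703 and 18, and the fit without the libraries numbered 3 gave 22, 519, 1163 and 436. Without a filter 52, 86 and 20 were called in the 3 double mutant comparisons, and with both groups alone 2 were called in Tet2het against WT, 0 in the double mutant against Tet2het and 1 against Akita. A mean of at least 5 CPM gave 8 against Tet2het and 3 against Akita. Limma voom gave 13 against WT and 3 against Akita, and upper quartile factors 3 against Akita. The interaction gave 3 with no filter, 3 with the block and 7 without number 3, and its wider list median was -0.10 then, against 0.51. Leaving out 1 library gave 1 to 7, 1 to 49, 0 to 66 and 0 to 11 calls in these 4 comparisons. The cause of these shifts was not tested. Depth limits Gp6 and Ppbp most, whose lowest libraries held 3 and 8 counts.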
